A study of Homo sapiens with 32 samples.

Results

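Transcripts of 8 immediate early genes, ARC, IER2, IER3, IER5, IER5L, NR4A1, NR4A2 and NR4A3, were followed in HEK293 cells, a widely used line derived from human embryonic kidney. The members were the rows of these gene names among the 57773 genes counted, and each name had 1 row. All cells, those of the control included, had been transiently transfected with the human angiotensin II type 1 receptor (AT1R), so that the cells of a culture need not all carry the receptor. In medium without serum, the cells were left without stimulus (control) or stimulated over 6 h or 24 h. The stimuli were angiotensin II (AII) at 1 nmol/l, epidermal growth factor (EGF) at 10 µg/l, and the combination AII+EGF. Each condition had 4 libraries, except AII+EGF after 24 h with 3. The labels do not say whether the libraries of a condition came from separate cultures, so the p-values measure the spread between libraries, which may be technical in part. In both time points the library numbers form a first and a second series, each with every condition. Levels are FPM, counts per 1000000 counts of a library scaled with TMM, and were set for each time point on its own. A gene was called higher or lower at a false discovery rate below 0.05 over all tested genes (edgeR), a change above 1.5-fold and a mean above 5 FPM in the group where it was higher.

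Immediate early genes are transcribed within minutes of a stimulus from factors that are already in the cell, among them SRF with its ternary complex partners and CREB, and many of their transcripts decay quickly. EGFR is a receptor tyrosine kinase that drives the ERK1/2 cascade, and AT1R is a G-protein-coupled receptor that acts through calcium and protein kinase C, among other routes. ARC encodes a cytoskeleton-associated protein best known from activated neurons. The IER genes encode proteins of the early response. The NR4A genes encode orphan nuclear receptors, which act as transcription factors without a known activating ligand of the classical kind.

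The totals were 3881841 to 8540815 counts per library after 6 h and 6646227 to 33070903 after 24 h, when U1 small nuclear RNA genes took 8.90% to 57.2% of a library. The biological coefficient of variation was 10.6% after 6 h and 29.1% after 24 h. The receptor transcript AGTR1 had 950 to 1570 FPM after 6 h and 369 to 685 FPM after 24 h in every condition. Such FPM values cannot be compared directly between the time points, because each was scaled on its own and the make-up of the libraries differed. All 6 markers of HEK293 cells that were looked up (VIM, KRT8, KRT18, NEFL, NEFM and LIN28B) were detected in every library. Among markers of other cell types, the collagen COL3A1 had 7.73 to 32.6 FPM over both time points, whereas PTPRC, COL1A2, ALB and DES stayed at or below 1.27 FPM, and PECAM1 was not analysed here. The low-count filter kept 7 members among 18618 genes after 6 h, leaving out IER5L with 2 to 16 counts per library, and all 8 members among 22174 genes after 24 h.

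NR4A3 was the one member beside ARC that passed the thresholds, and IER2 came nearest to them, so the promoters of NR4A3 and IER2 are the sequences shown. RefSeq (GRCh38.p14) gave windows from 250 bases before to 50 after the annotated start for 5 members, with 2 windows for NR4A1. The set used here held no window for ARC, IER3 or NR4A2, so their promoters were not searched. The 250 bases before the start of NR4A3 (chr9:99821635-99821884) and of IER2 (chr19:13150161-13150410), both on the plus strand, are given from 5′ to 3′. Capitals mark the short CRE motif TGACG (part of the cAMP response element), the ETS site CCGGAA and the TATA box TATAA on either strand.
NR4A3: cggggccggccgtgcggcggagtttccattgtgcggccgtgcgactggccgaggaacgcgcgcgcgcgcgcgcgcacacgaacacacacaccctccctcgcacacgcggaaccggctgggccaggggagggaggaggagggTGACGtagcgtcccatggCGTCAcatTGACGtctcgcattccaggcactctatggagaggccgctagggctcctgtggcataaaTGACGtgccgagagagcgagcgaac
IER2: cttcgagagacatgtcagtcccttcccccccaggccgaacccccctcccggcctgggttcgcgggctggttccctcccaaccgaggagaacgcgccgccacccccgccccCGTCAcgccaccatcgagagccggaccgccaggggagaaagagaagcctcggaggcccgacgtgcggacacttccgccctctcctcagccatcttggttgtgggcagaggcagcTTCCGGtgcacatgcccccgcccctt

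The NR4A3 window held 4 short CRE motifs, which begin at -109, -91, -83 and -25 bases from the start. Of 35116 promoters, 110 (0.313%) held 4 or more, while 24.553% held at least 1. The cut of 4 is the count in NR4A3, the highest for any motif in these windows, so the share carries no test. IER2 had 1 short CRE motif and 1 ETS site. An ETS site was also found in IER5 and in the upstream window of NR4A1 (17.249% of all promoters), and a TATA box in IER5 (20.435%). No window of the 5 members held the full CRE TGACGTCA (1.848%), the AP1 site TGACTCA or TGAGTCA (4.949%) or the CArG box of SRF (1.293%), which says only that these letters are not in these windows. The short CRE motif is part of the full CRE, so the motifs are not independent.

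**Figure D1:**
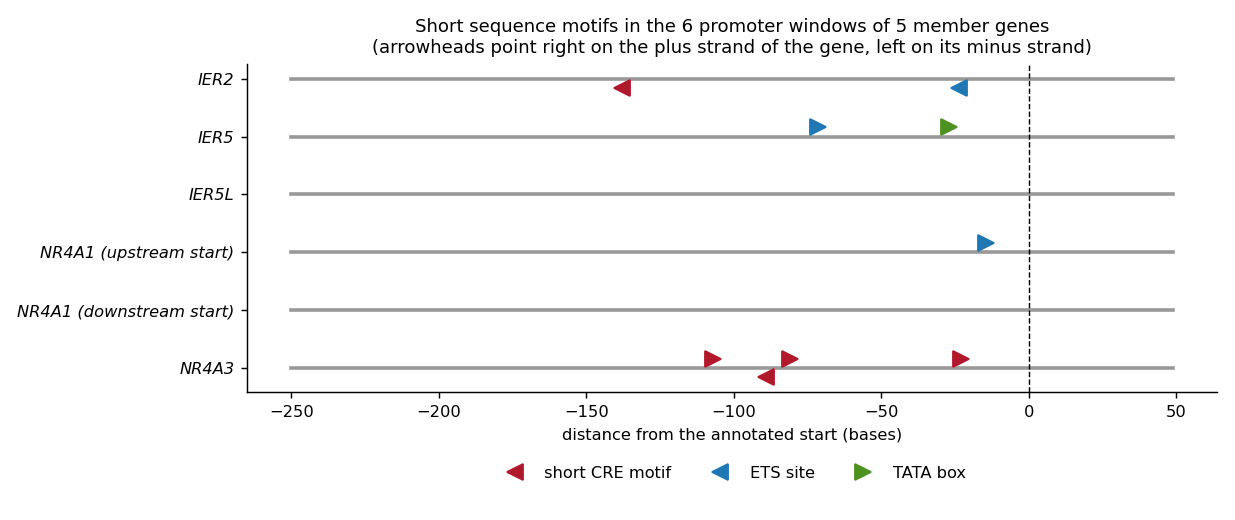
Matches of short motifs along the 6 promoter windows of 5 members, plotted by their distance in bases from the annotated start (dashed line); arrowheads give the strand and the colour the motif. NR4A3 holds 4 short CRE motifs, and the windows of IER5L and of the downstream start of NR4A1 hold none of the 3 motifs drawn.

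In GRCh37 coordinates, from GENCODE v44 lifted to that build, the genes lie as follows. ARC is on chromosome 8 from 143692410 to 143695840 on the minus strand. IER2 is on chromosome 19 (13261225 to 13265725), IER3 on chromosome 6 (30710976 to 30712325) and IER5 on chromosome 1 (181057836 to 181062036). IER5L and NR4A3 are both on chromosome 9, from 131937831 to 131940540 and from 102584137 to 102629173. NR4A1 is on chromosome 12 (52416616 to 52453291) and NR4A2 on chromosome 2 (157180949 to 157198860). IER2, IER5, NR4A1 and NR4A3 are read from the plus strand, the others from the minus strand. IER5 and IER5L have 1 exon each. Genes on the opposite strand overlap IER2, IER3, IER5L, NR4A1 and NR4A3. The strand setting of the counting is not given in the sources used here. Reads of the overlapping genes could therefore not be told apart from those of the members. None of these overlapping genes for which counts were given had more than 28 counts over all libraries of a time point. Such low counts do not show how far the overlap affected the counts of the members.

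Levels were compared between members per kilobase of exon, counting all annotated exons of a gene over all its transcripts. This length was 7295 bases for NR4A1, 6314 for NR4A3 and 1350 for IER3, and the order depends on it. Without it, NR4A1 had 13.3 FPM and IER3 4.87 FPM in control cells after 6 h. In control cells after 6 h IER5, which binds heat shock factor 1 and the phosphatase PP2A, was highest with 12.4 ± 3.0 FPM per kb (SD, n = 4). IER2 followed with 5.22 ± 0.70, IER3 with 3.61 ± 1.77 and NR4A1 with 1.83 ± 0.67 FPM per kb. The lowest levels were those of NR4A2 (0.674 ± 0.161), NR4A3 (0.586 ± 0.124), ARC (0.537 ± 0.357) and IER5L (0.382 ± 0.179 FPM per kb). The libraries of IER5 did not overlap those of IER2, nor NR4A1 those of NR4A2, whereas all other neighbours in this order overlapped. With EGF, ARC stood in place 4 at 3.32 ± 0.53 FPM per kb, overlapping IER3 above it but not NR4A1 below it. With AII+EGF it came to 6.10 ± 0.81 FPM per kb, overlapping IER2 (7.52 ± 0.91) and clear of IER3 (3.82 ± 1.33). After 24 h IER5 again led in control cells (7.0 ± 0.99 FPM per kb) and ARC stood in place 7 (0.228 ± 0.328), with both overlapping their neighbours.

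ARC rose with EGF and with AII+EGF after 6 h, and its level was highest with AII+EGF. The control libraries had 0.694, 1.44, 1.15 and 3.14 FPM (3 to 19 counts), and those with AII had 2.85, 1.28, 2.50 and 1.57 FPM. With EGF the values were 12.3, 9.11, 9.15 and 9.22 FPM, and with AII+EGF 17.5, 15.6, 21.4 and 18.5 FPM. Control and AII overlapped, every EGF library was above both, and every AII+EGF library was above every EGF library. Against control, ARC was 5.84-fold higher with EGF (95% confidence interval 3.90 to 8.74, edgeR adjusted p = 3.5e-06) and 10.8-fold higher with AII+EGF (7.36 to 15.8, adjusted p = 9.5e-09). Against AII alone, AII+EGF was 8.79-fold higher (6.07 to 12.7, adjusted p = 2.5e-08). With AII alone the log2 difference was 0.29 (95% confidence interval -0.48 to 1.06, adjusted p = 0.99). In RNA of whole cultures, more cells with the transcript and more transcript per cell cannot be told apart.

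The comparison of AII+EGF with EGF asks whether AII adds to the response to EGF. For ARC the difference was 0.88 on the log2 scale (edgeR standard error 0.20, 95% confidence interval 0.48 to 1.29, 1.85-fold). ARC was ranked 5 of 18618 genes by its unadjusted edgeR p of 0.00017, with an adjusted p of 0.58, and the smallest adjusted p of any gene was 0.093. The edgeR test therefore called 0 members and 0% of all genes in this comparison. DESeq2 also called 0 members, but its adjusted p for ARC was 0.051, just above the limit of 0.05. In edgeR 2 members, ARC and IER2, had an unadjusted p below 0.05, as had 1352 of the 18618 genes. Over the alternatives the adjusted p of ARC ran from 0.0012 without the low-count filter to 0.96 without AII+EGF replicate 4. As for ARC here, all AII+EGF libraries lay above all EGF libraries for 2.85% of the genes, and the exact two-sided permutation test of 8.30 FPM gave p = 0.029, the smallest that 4 against 4 libraries allow. The difference was present in both series: 10.7 FPM with EGF and 16.6 FPM with AII+EGF in the first, and 9.18 and 19.9 FPM in the second.

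On the linear scale, the mean of ARC was above control by 0.447 FPM with AII, by 8.34 FPM with EGF and by 16.6 FPM with AII+EGF, which is 7.86 FPM more than the sum of the single steps (standard error 1.58). On the log2 scale the interaction was 0.59 (95% confidence interval -0.30 to 1.48, adjusted p = 0.72), and without control replicate 4, the control with the most ARC, it was 0.028. No member was called for the interaction (0% of the tested genes, and 0 calls with DESeq2). In edgeR 0 members had an unadjusted p below 0.05, against 1491 of 18618 genes. The log2 values ran from -0.24 for NR4A2 to 1.17 for IER3, with IER2, IER5, NR4A1 and NR4A3 between them. Without EGF replicate 1, which had the most IER3, the value for IER3 was 1.98 (adjusted p = 0.88).

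**Figure D2:**
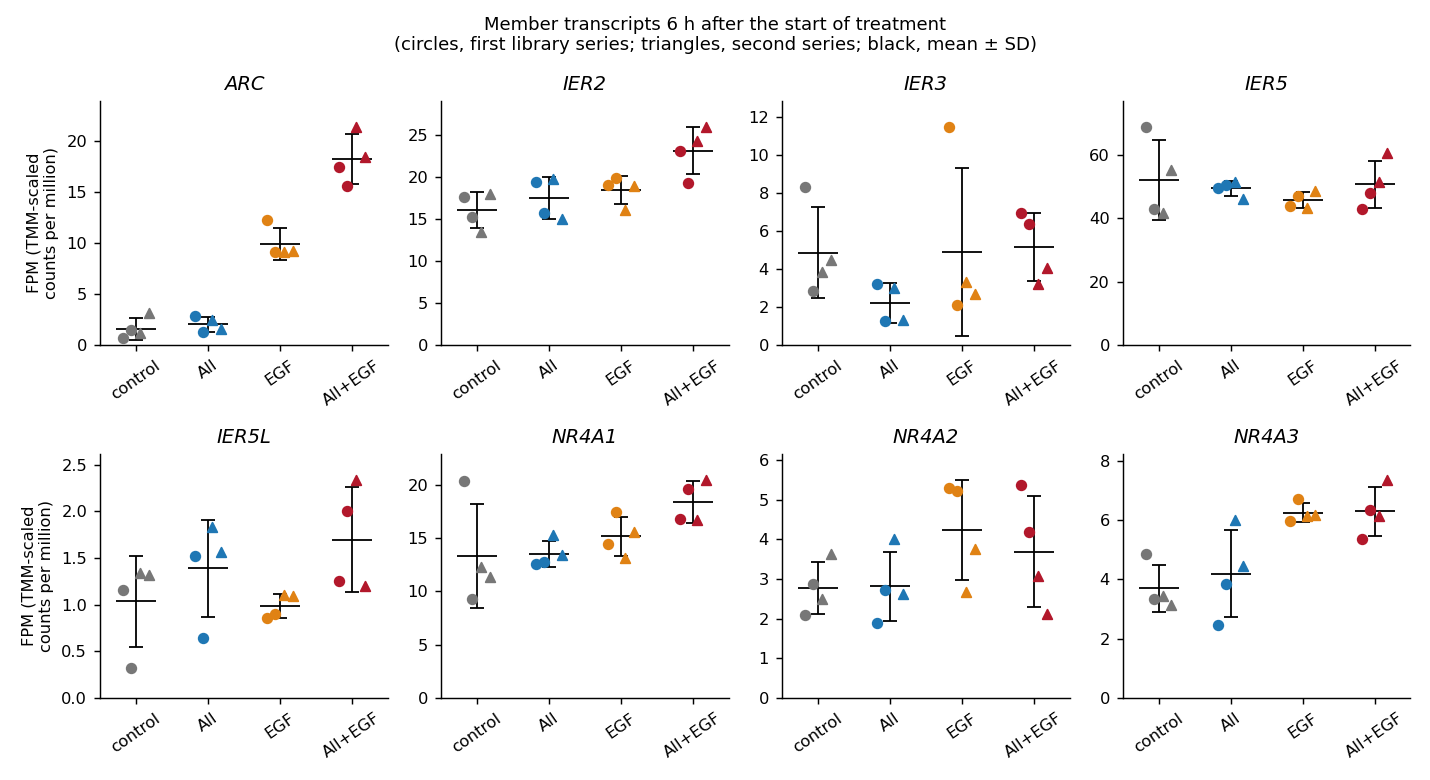
Level in FPM (y axis, from 0, a scale for each gene) of the 8 members in each library after 6 h, by condition; circles are the first and triangles the second library series, black marks the mean ± SD of 4 libraries. ARC libraries with EGF lie between 9.11 and 12.3 FPM and those with AII+EGF between 15.6 and 21.4 FPM, while IER5 overlaps in all conditions.

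Of the NR4A receptors, NR4A3 rose with EGF. It had 4.86, 3.35, 3.45 and 3.14 FPM in control and 5.99, 6.72, 6.15 and 6.18 FPM with EGF. AII+EGF gave 5.36, 6.36, 6.15 and 7.37 FPM, and AII alone gave 2.47, 3.84, 6.00 and 4.46 FPM. Both conditions with EGF lay above all control libraries, and AII alone spread over both ranges. The rise was 1.72-fold with EGF (95% confidence interval 1.23 to 2.39, adjusted p = 0.045) and 1.73-fold with AII+EGF (1.24 to 2.42, adjusted p = 0.042), and between the 2 conditions the log2 difference was 0.01 (-0.42 to 0.45). These calls were close to the threshold and rest on 18 to 51 counts per library: leaving out 1 library ended the call in 7 of 8 cases for EGF (adjusted p up to 0.12) and in 6 of 8 for AII+EGF (up to 0.13), with log2 differences of at least 0.71 throughout. Only leaving out control replicate 1 kept both calls, and leaving out AII+EGF replicate 1 kept the second. Against AII, AII+EGF differed by 0.59 (adjusted p = 0.14), and without AII replicate 3 by 0.83, which was called (adjusted p = 0.038). With the filter on low counts removed the adjusted p was 0.059 and 0.057.

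NR4A1, known for roles in apoptosis and metabolism, had 13.3 ± 4.9 FPM in control and 13.5 ± 1.3 FPM with AII (SD, n = 4). The level was 15.2 ± 1.9 FPM with EGF and 18.4 ± 1.9 FPM with AII+EGF. Its log2 difference was 0.50 for AII+EGF against control (standard error 0.17, adjusted p = 0.10) and 0.22 for EGF against control (adjusted p = 0.52). Control replicate 1 held 20.4 FPM of NR4A1, within the AII+EGF range of 16.7 to 20.5 FPM, and the other controls 9.25 to 12.3 FPM. Without this library NR4A1 passed the thresholds with AII+EGF (log2 difference 0.76, adjusted p = 0.0020). The same library was the highest control for IER3, IER5 and NR4A3, and the lowest for ARC. NR4A2, known from the development of dopaminergic neurons, had 2.77 ± 0.66 FPM in control and 2.81 ± 0.87 FPM with AII. It had 4.24 ± 1.26 FPM with EGF and 3.68 ± 1.4 FPM with AII+EGF, and no difference passed the test (adjusted p of 0.29 or more). With every mean below the limit of 5 FPM, NR4A2 could not have been called. In the first series NR4A2 had 5.30 and 5.23 FPM with EGF against 2.08 and 2.87 FPM in control, and in the second 2.68 and 3.76 FPM against 2.49 and 3.64 FPM, with overlap.

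Among the IER genes, IER2, which encodes a nuclear protein of the early growth response, had 17.6, 15.3, 13.4 and 18 FPM in control. The values were 19.4, 15.7, 19.8 and 15 FPM with AII, 19, 19.9, 16.1 and 18.9 FPM with EGF, and 23.1, 19.3, 24.3 and 25.9 FPM with AII+EGF. The AII+EGF libraries were all above the controls and overlapped those with EGF. The log2 difference of AII+EGF from control was 0.53 (standard error 0.13, adjusted p = 0.016), which passed the false discovery rate but at 1.44-fold not the fold limit of 1.5. It passed that limit too without control replicate 4 or without AII+EGF replicate 2, and over all libraries left out the log2 difference was 0.45 to 0.60 with an adjusted p of 0.0095 to 0.064. Against EGF alone it was 0.33 (95% confidence interval 0.07 to 0.59, adjusted p = 0.68).

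IER3, a regulator of apoptosis and of ERK signalling, spread widely between libraries of a condition. With EGF, replicate 1 had 11.5 FPM and the others 2.09 to 3.31 FPM, and control ran from 2.87 to 8.33 FPM. With AII the level was 2.21 ± 1.06 FPM against 4.87 ± 2.39 FPM in control (log2 difference -1.07, 95% confidence interval -2.11 to -0.03, unadjusted p = 0.044, adjusted p = 0.99). Both means were below the limit of 5 FPM, so this difference could not have been called. AII+EGF gave 5.15 ± 1.8 FPM, which was 2.25-fold the level with AII alone (adjusted p = 0.18), and without the low-count filter this passed the thresholds (adjusted p = 0.0048). IER5 stayed between 41.6 and 68.9 FPM in all 16 libraries, and its log2 differences from control were -0.06 with AII and -0.18 with EGF, and for AII+EGF -0.03, the last with a 95% confidence interval of -0.28 to 0.23. IER5L, an IER5-like gene, had 1.03 ± 0.49 FPM in control and 1.39 ± 0.52 FPM with AII. It had 0.99 ± 0.13 FPM with EGF and 1.70 ± 0.56 FPM with AII+EGF, and was not tested in edgeR. All AII+EGF libraries (1.20 to 2.34 FPM, 7 to 16 counts) lay above all EGF libraries (0.855 to 1.10 FPM, 5 to 9 counts), as for 2.85% of the tested genes. The exact two-sided permutation test gave p = 0.029, the smallest that 4 against 4 libraries allow.

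By counts after 6 h, 2 of 7 tested members, ARC and NR4A3, were called higher with EGF, where 1.04% of all tested genes were called higher, and the same 2 with AII+EGF, where 1.39% were. The members were chosen with earlier results of these data known. Against AII, AII+EGF raised 1 member, ARC (1.39% of all genes called higher). All 7 members had a log2 difference above 0 there, and 5 had an unadjusted edgeR p below 0.05 (ARC, IER2, IER3, NR4A1 and NR4A3). Over all genes, 3657 of 18618 had such a p, higher or lower. The AII+EGF libraries all lay above the AII libraries for ARC and NR4A1, as for 7.12% of all genes. No member was called lower in these comparisons. With AII alone 0 members and 0% of genes were called by edgeR and 0 members by DESeq2. ARC, IER3, NR4A2 and NR4A3 had means below 5 FPM in both control and AII. They could therefore not be called there, whatever their change. In edgeR 1 member, IER3, had an unadjusted p below 0.05, as had 845 of 18618 genes. The libraries did not overlap control for ARC and NR4A3 with EGF, as for 6.61% of all genes, and for ARC, IER2 and NR4A3 with AII+EGF, as for 6.77%. The median log2 difference of the 7 members was 0.06 with AII and 0.22 with EGF, and for AII+EGF 0.50, while the median over all tested genes was 0.00, -0.01 and -0.01. The treatments share their control libraries.

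**Figure D3:**
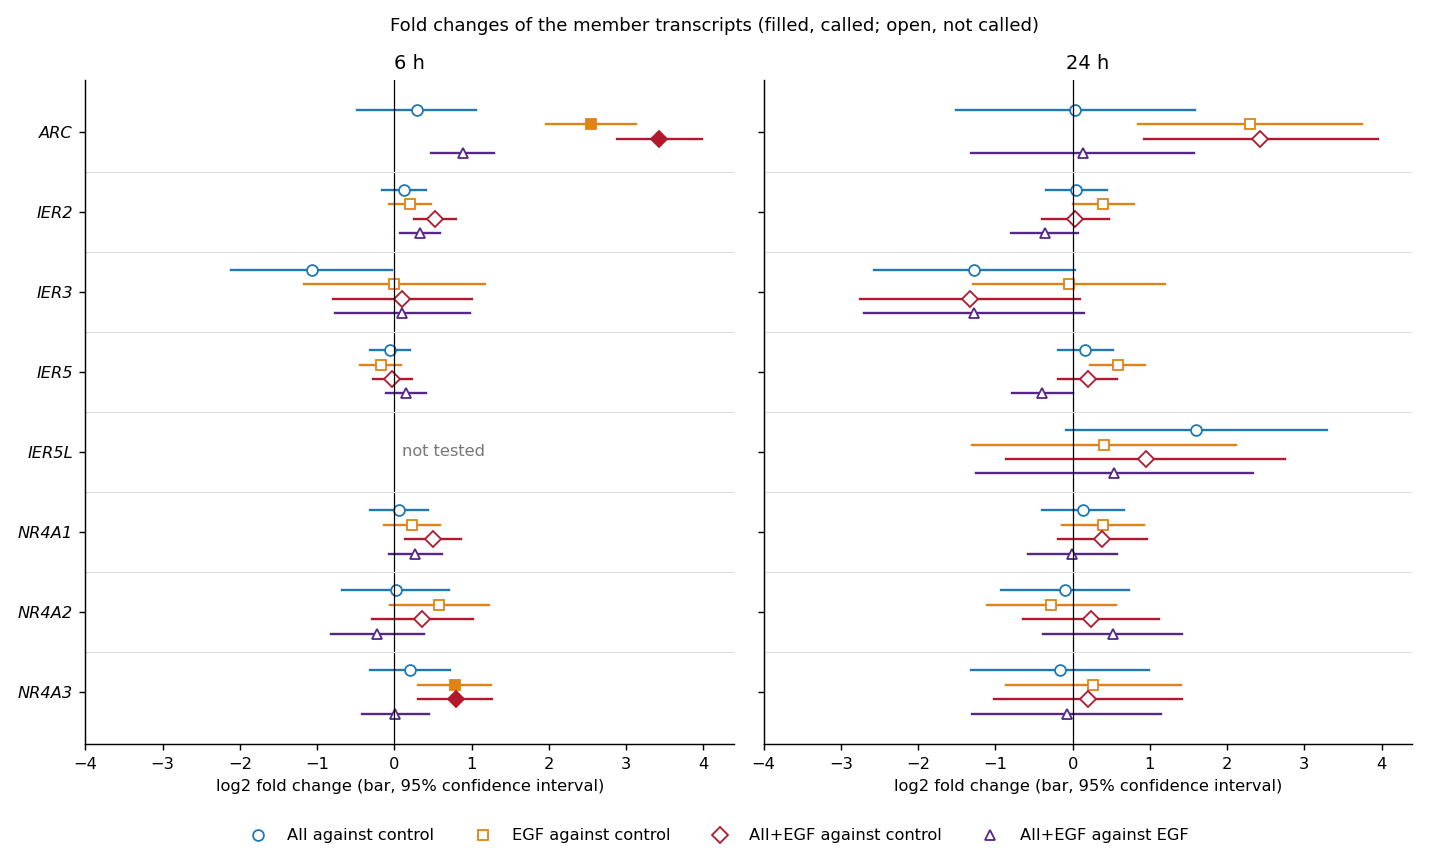
Log2 fold change (x axis) of each member in 4 comparisons after 6 h (left) and 24 h (right); bars are 95% confidence intervals from edgeR, filled symbols passed the thresholds, and IER5L was not tested after 6 h. Filled symbols are seen only for ARC and NR4A3 after 6 h, and the intervals are wider after 24 h.

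Other early response genes were counted from lists chosen by function, with earlier results of these data known. Of 20 transcription factors of the immediate early response, 17 were tested after 6 h: 5 rose with EGF and 7 with AII+EGF, and none was called lower. They were led by the zinc finger factors EGR1 (4.48 on the log2 scale with EGF, 4.64 with AII+EGF) and EGR3 (2.74 and 3.13), followed by FOS (2.34 and 2.68) and CSRNP1 (1.26 and 1.39), with FOSL2 (0.60) the fifth with EGF and MAFF (1.25) the fifth with AII+EGF. Between these values lay ARC with 2.55 and 3.43. Of 27 effectors, such as phosphatases and feedback inhibitors, 21 were tested and 3 rose with either treatment: the ERK phosphatases DUSP5 (1.60 and 1.83) and DUSP4 (0.79 and 0.91) and the inhibitor SPRY2 (0.75 and 0.94). Against AII, AII+EGF raised 7 of the factors and 5 of the effectors, and between AII+EGF and EGF none of either list was called.

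Further lists, chosen in the same way, stood closer to single members. Of 6 CREB target genes 4 were tested and 0 were called in any comparison after 6 h, with a median log2 difference of 0.02 with EGF and 0.09 with AII+EGF. Likewise 0 of 2 tested partners of the NR4A receptors and 0 of 3 partners of IER5 were called. Of 7 heat shock factor targets 1 rose with EGF, HSPH1 (0.73), and 4 with AII+EGF: HSPH1 (0.73), HSPB1 (0.70), HSPA1A (0.67) and HSPA1B (0.66), the last 2 near-identical copies whose reads may be split. Their median log2 difference was 0.42 with EGF and 0.66 with AII+EGF. Of the 6 HEK293 markers the neurofilament NEFM rose with EGF (0.60) and with AII+EGF (0.73), and KRT18 with AII+EGF (0.91). The part of these markers in the members' values was not tested. Of the other cell type markers only COL3A1 was tested, and it was not called.

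Over the 16 libraries after 6 h, the genes whose log2 FPM followed ARC most closely were PGBD5 (Pearson r = 0.965), TRIM9 (0.964) and the glucose transporter SLC2A1 (0.961). The mean level of SLC2A1 was 54.1 FPM in control and 53.4 FPM with AII, against 128 FPM with EGF and 154 FPM with AII+EGF. PGBD5 had 3.39 FPM in control and 4.06 FPM with AII, against 9.21 FPM with EGF and 12.2 FPM in AII+EGF cells. NR4A3 was followed by the transporter SLCO4A1 (r = 0.943), RP3.512B11.3 (0.894) and the apoptosis gene BOK (0.883). These values describe libraries that share treatments, series and scaling, and carry no test.

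After 24 h no member was called against control. With AII this was 0 of 8 members with 0% of all genes called, with EGF 0 of 8 with 0.0316% called, and with AII+EGF 0 of 8 with 0.0271% called. The mean levels of ARC, IER5L, NR4A2 and NR4A3 were below 5 FPM in every condition after 24 h. These members could therefore not be called in any comparison after 24 h, whatever their change. DESeq2 called 0 members in each of the 3, but gave an adjusted p to only 7 members with EGF, not to IER5L, and to 3 with AII+EGF, not to ARC, IER3, IER5L, NR4A2 and NR4A3. The members with an unadjusted p below 0.05 in edgeR were 0 with AII, 2 with EGF (ARC and IER5) and 1 with AII+EGF (ARC). Of all 22174 genes, 552, 1881 and 1198 had such a p. The ARC levels were 0, 0.500, 2.12 and 0.115 FPM in control and 0.199, 0.752, 1.32 and 0.651 FPM with AII. EGF libraries had 5.31, 2.86, 2.88 and 3.23 FPM, and AII+EGF libraries 2.89, 5.11 and 3.78 FPM. Every library with EGF or AII+EGF was above every control library, as for 2.35% of the genes with EGF and 3.99% with AII+EGF. The log2 difference was 2.30 with EGF (standard error 0.70, adjusted p = 0.34). It was 2.43 for AII+EGF (standard error 0.73, adjusted p = 0.57), and the mean levels of 3.57 and 3.93 FPM were below the limit of 5.

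Control replicate 3 held 40 counts of ARC and the other controls 0 to 9. Without it the log2 difference of ARC after 24 h was 3.94 with EGF (adjusted p = 0.081) and 4.07 with AII+EGF (adjusted p = 0.048). With the low-count filter removed the adjusted p was 0.0067 with EGF and 0.0029 with AII+EGF, still below the limit of 5 FPM. Without AII replicate 3 and AII+EGF replicate 4, in which U1 genes took over 50% of the counts, 0 members were called, and the log2 difference was 2.29 for ARC and 0.58 for IER5 with EGF. Between AII+EGF and EGF ARC differed by 0.13 on the log2 scale (95% confidence interval -1.31 to 1.57). In this comparison 0 members and 0% of the genes were called, and DESeq2 called 0 members. In edgeR 1 member, IER5, had an unadjusted p below 0.05, as had 747 of 22174 genes. Against AII, the log2 difference of ARC was 2.40 (adjusted p = 0.71), with 0 members and 0.0406% of all genes called. ARC was the 1 member with an unadjusted edgeR p below 0.05, against 949 of 22174 genes. DESeq2 called 0 of the 4 members to which it gave an adjusted p here, and ARC was not among them.

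**Figure D4:**
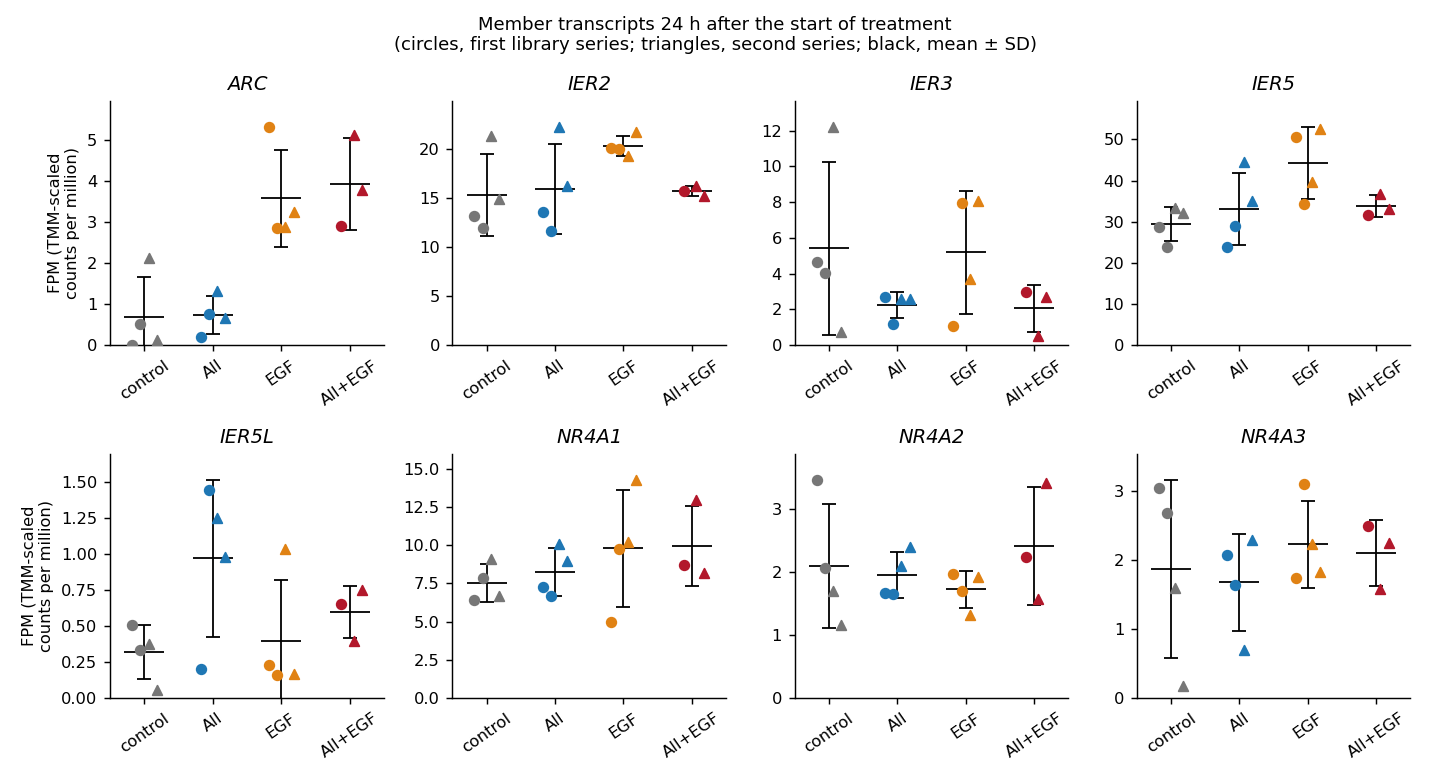
Level in FPM (y axis, from 0, a scale for each gene) of the 8 members in each library after 24 h, by condition; circles are the first and triangles the second library series, black marks the mean ± SD of 4 libraries, or of 3 for AII+EGF. ARC libraries with EGF lie between 2.86 and 5.31 FPM, and control replicate 3 is the highest control for ARC (2.12 FPM) and IER3 (12.2 FPM).

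IER5 had its highest mean after 24 h with EGF. Its libraries had 28.6, 23.9, 33.2 and 32.0 FPM in control and 50.7, 34.4, 39.6 and 52.5 FPM with EGF, without overlap (log2 difference 0.59, 95% confidence interval 0.23 to 0.94, unadjusted p = 0.0026, adjusted p = 0.34). AII gave 33.0 ± 8.8 FPM (n = 4) and AII+EGF 33.8 ± 2.8 FPM (n = 3), and both overlapped control. AII+EGF differed from EGF by -0.39 (unadjusted p = 0.048, adjusted p = 1), and the interaction was -0.56 (95% confidence interval -1.09 to -0.03, unadjusted p = 0.039, adjusted p = 1). IER5 was the 1 member with an unadjusted p below 0.05 for the interaction, where 0 members and 0% of the genes were called by edgeR and 0 members by DESeq2. Of all 22174 genes, 525 had such a p for the interaction.

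IER2 had 15.3 ± 4.2 FPM in control and 15.9 ± 4.6 FPM with AII (n = 4), 20.2 ± 1.1 FPM with EGF (n = 4) and 15.7 ± 0.51 FPM with AII+EGF (n = 3). Its AII+EGF libraries (15.2 to 16.2 FPM) all lay below its EGF libraries (19.2 to 21.7 FPM). The exact two-sided permutation test gave p = 0.029, the smallest that 3 against 4 libraries allow. In edgeR the log2 difference was -0.36 (unadjusted p = 0.098) and was not called. The share of all genes with such a separation downwards was not counted. IER3 ran from 0.747 to 12.2 FPM in control and from 1.04 to 8.04 FPM with EGF, and was at 2.25 ± 0.73 FPM with AII and 2.05 ± 1.33 FPM with AII+EGF. Its log2 differences from control were -1.27 with AII (adjusted p = 1) and -1.33 with AII+EGF (adjusted p = 0.94). Without control replicate 3, the control with the most IER3, they were -0.48 and -0.54. IER5L had 1 to 21 counts per library, and its log2 difference of 1.60 with AII had a 95% confidence interval of -0.08 to 3.29. The NR4A genes overlapped in all conditions: NR4A1 between 4.97 and 14.3 FPM, NR4A2 between 1.15 and 3.46 FPM and NR4A3 between 0.172 and 3.10 FPM, with log2 differences from control of -0.28 to 0.39. Among the other early response lists, EGR1 alone was called after 24 h, with 2.53 on the log2 scale for EGF and 2.95 for AII+EGF, and of the HEK293 markers NEFM with 1.16 for EGF.

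The effects at the 2 time points were compared in a joint fit of both tables, in which the time of treatment and the differing make-up of the libraries of the time points cannot be told apart. No member was called: 0 of 8 for AII (0% of all genes), 0 of 8 for EGF (0.160%) and 0 of 8 for AII+EGF (0.109%), with 0 calls by DESeq2 in each, which gave no adjusted p to IER5L with EGF nor to IER5L, NR4A2 and NR4A3 with AII+EGF. In edgeR 0, 1 and 1 members had an unadjusted p below 0.05, against 842, 2220 and 1642 of 21932 genes. For EGF this member was IER5, whose effect was 0.77 higher on the log2 scale after 24 h than after 6 h (95% confidence interval 0.30 to 1.23, adjusted p = 0.19). For AII+EGF it was IER2, whose effect differed by -0.52 (95% confidence interval -1.03 to 0.00, adjusted p = 0.66). For ARC the differences were -0.32 with EGF (-1.83 to 1.20) and -1.08 with AII+EGF (-2.63 to 0.47), intervals that hold both no change and a change of several-fold. Without control replicate 3 after 24 h they were 1.33 and 0.56.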

How the data were processed

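RNA of AT1R-transfected HEK293 cells was sequenced. The authors deposited raw counts per gene for each library. According to the study's methods and the submitters' processing notes, adaptors were clipped with cutadapt 1.8.1, reads mapped with TopHat2 2.0.14 to hg19 and counted with featureCounts 1.4.6. The strand setting is not given in the sources used here. In the 24 h table, the column names of 7 of 7 libraries of the first series and of 1 of the second carry the word filtered, without further explanation. The labels name 32 samples, of which 31 have a column of counts used here. Replicate numbers follow the order of the samples and only name the libraries. The remaining AII+EGF sample after 24 h was not analysed here. The members and the gene lists were chosen with earlier results of these data known.

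For each time point, all conditions were fitted together in edgeR 4.0.16 (R 4.3.3), with filterByExpr, TMM and the quasi-likelihood F test, and p-values were adjusted over all tested genes (Benjamini-Hochberg). A gene was called at an FDR below 0.05, a fold change above 1.5 and a mean above 5 FPM in the group where it was higher. For the time difference the last limit applied to any group. Standard errors were taken from the F statistic. The tests were checked on simulated counts. Exact two-sided permutation tests used FPM. All members are named, with the up to 5 called genes of each list that changed most and, for called members, the 3 genes with the highest correlation of log2 FPM (prior count 2). No 2 libraries of a condition agreed within counting noise (chi-square per degree of freedom of 2.07 or more), so none was taken for a repeat deposit of another. This does not show that they came from separate cultures. Alternatives were DESeq2 1.42.0, its size factors, no low-count filter, the FDR alone, the library series as a block, protein-coding genes, each library left out, and levels per 1000000 protein-coding counts. Leaving out libraries with over 50% U1 counts, and each library for the time difference, were added after seeing the data. Promoter sequences came from RefSeq, for 5 of the 8 members. Totals limit precision for members with few counts, and all errors given cover the spread between libraries.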

Additional observations from a re-analysis of the deposited data

Results flagged for a closer look

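In 5 of 56 condition groups of 4 libraries, 1 library of a member stood apart from the other 3 by Dixon's 95% criterion (the gap to the nearest library over the range), which chance alone gives for about 1 group in 20. After 6 h, EGF replicate 1 had 12.3 FPM of ARC (gap 0.966 of the range, the others 9.11 to 9.22 FPM) and 11.5 FPM of IER3 (0.870, the others 2.09 to 3.31 FPM). After 24 h, EGF replicate 1 had 5.31 FPM of ARC (0.849, the others 2.86 to 3.23 FPM), EGF replicate 3 had 1.03 FPM of IER5L (0.913, the others 0.155 to 0.231 FPM, 19 counts) and AII replicate 2 had 1.16 FPM of IER3 (0.947, the others 2.58 to 2.66 FPM). Without EGF replicate 1 the log2 difference of ARC between AII+EGF and EGF after 6 h was 0.99 instead of 0.88.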

How the results depend on the processing

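Without the low-count filter, the members called after 6 h were 1 with EGF, 1 with AII+EGF, 1 for AII+EGF against EGF (ARC) and 2 for AII+EGF against AII. Leaving out each library gave 1 to 2 called members with EGF, 1 to 3 with AII+EGF and 1 to 2 for AII+EGF against AII. In all other comparisons no library left out changed the count of 0. The exact test of ARC (8.3 FPM between AII+EGF and EGF) gave p = 0.056 within the library series, the smallest p that this arrangement allows. DESeq2, its size factors, the library series block and protein-coding genes left every count of called members as it was. For DESeq2 after 24 h this covers only the members with an adjusted p, so not ARC for AII+EGF against control or AII.

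For ARC after 24 h the sign turned in differences close to 0. With the series block AII+EGF differed from EGF by -0.065 and the interaction was -0.18, and without the 2 libraries rich in U1 AII differed from control by -0.44. Over libraries left out, these 3 ran from -0.083 to 0.38, from -1.55 to 0.57 and from -0.44 to 1.68. The time difference of ARC ran from -0.85 to 1.35 with AII, from -0.88 to 1.33 with EGF and from -1.64 to 0.56 with AII+EGF, and its positive end was reached without control replicate 3 after 24 h. Of 75 other member values with an unadjusted p of 0.1 or more, 43 changed sign under at least 1 alternative and 0 gained a call. Levels per 1000000 protein-coding counts were 1.17 to 1.22 times the FPM after 6 h and 2.30 to 2.39 times after 24 h. No paired analysis was possible because, within a library series, no number ties single libraries of different conditions. The series themselves were used as a block. Counting error limits ARC, IER3, IER5L, NR4A2 and NR4A3, which had under 20 counts in some libraries.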
